A study of Homo sapiens with 16 samples.

Results

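The data described here are the ATAC-seq peak lists of fibroblasts with active and inactive Raf, both kept in normoxia. ATAC-seq cuts DNA with the Tn5 transposase, which inserts where chromatin is open, and a peak is a stretch where insertions exceed the local background. The comparison took the 8 libraries whose labels combine normoxia with a Raf state, of 16 libraries in the series. The 4 Raf-active libraries came from IMR90 cells, an established line of human lung fibroblasts, infected with a retrovirus encoding ΔB-RAF:ER and labelled Raf-activated. The 4 Raf-inactive libraries came from the same line and are labelled Raf-inactivated. ΔB-RAF:ER is a B-RAF kinase fused to the hormone-binding part of the estrogen receptor, which the drug 4-hydroxytamoxifen (4-OHT) switches on. Per the labels, infection and 4-OHT are described once for the whole series, without dose, time or the treatment of the Raf-inactive cells. The other 8 libraries have the same Raf states in hypoxia at 0.5% oxygen and served only as a comparison. The Raf state rests on the labels, since a peak list holds no direct measure of the fusion kinase. The labels do not say whether replicates were separate cultures, so each p-value covers only library-to-library spread, possibly of technical origin.

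Raf kinases pass growth signals through MEK to ERK, which acts on AP-1 and ETS transcription factors and induces its own inhibitors. Sustained Raf signalling in normal fibroblasts ends in oncogene-induced senescence, a lasting arrest held by the p16-RB and p53 pathways. Senescent fibroblasts secrete cytokines and proteases, known together as the senescence-associated secretory phenotype (SASP). They also lose lamin B1 from the nuclear lamina and rearrange their heterochromatin.

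The 4 Raf-active lists held 199560 ± 6372 distinct peaks and covered 90.2 ± 3.20 Mb, against 176955 ± 1900 peaks and 79.4 ± 2.23 Mb in the 4 Raf-inactive lists (mean ± SD, n = 4 each). Depth moved with the Raf state. The background pileup, the number of fragments stacked at a typical position and recovered from the listed folds and p-values, was 6.09 to 7.10 in Raf-active and 3.01 to 3.50 in Raf-inactive libraries. After every list was thinned to the lowest background, called matched depth below, the Raf-active lists held 1434 more peaks than the Raf-inactive lists, so the difference in number cannot be told apart from depth. A peak missing from a list was not detectable at that depth, which does not show closed chromatin. Lists of different groups shared a smaller part of their covered bases (mean Jaccard index 0.412) than lists within the Raf-active group (0.764) or the Raf-inactive group (0.711).

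Open chromatin in Raf-active cells lay more often in gene-rich and chromosome-end segments and less often in gene-poor segments. In 1 Mb bins with at most 1 protein-coding gene, 877 of 3043 bins, the share of peaks was 6.33, 6.52, 6.77 and 6.90% in the Raf-active libraries, against 9.65, 9.62, 9.64 and 9.66% in the Raf-inactive libraries. Within 2 Mb of a chromosome end the share was 5.32, 5.20, 5.00 and 4.93% in the Raf-active libraries, against 3.36, 3.41, 3.39 and 3.39% in the Raf-inactive libraries. The groups did not overlap in either measure. The share more than 50 kb from any of the 15812 listed gene starts was 48.3 ± 0.411% with Raf active and 53.4 ± 0.0655% with Raf inactive (n = 4 each). Starts on chromosome 8 were not used here, so its peaks count as distant. Genes on other chromosomes lack a listed start too, out of 19974 protein-coding genes, so peaks near those genes can also count as distant. Each of these 3 differences had p = 0.0286 in an exact permutation test (two-sided), the smallest p that 4 against 4 libraries allow, and an adjusted p of 0.0357 over 5 such measures. At matched depth the differences were -2.83, 1.44 and -4.73 percentage points, against -3.02, 1.72 and -5.05 in the full lists.

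The share of peaks within 1 kb of a gene start was also lower with Raf active, at 6.80 ± 0.172% against 7.49 ± 0.0721% (exact permutation p = 0.0286, adjusted p = 0.0357). That difference of -0.68 percentage points shrank to -0.15 at matched depth, where the adjusted p of the exact permutation test was 0.0857, and was 0.07 among peaks with a fold of at least 5. Median peak length was 362 ± 3.65 bp with Raf active and 368 ± 6.06 bp with Raf inactive, and the groups overlapped (exact permutation p = 0.171, adjusted p = 0.171). Among peaks with a -log10 q of at least 5 the difference was -17.5 bp and passed, with an adjusted p of 0.0286 in the exact permutation test.

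**Figure D1:**
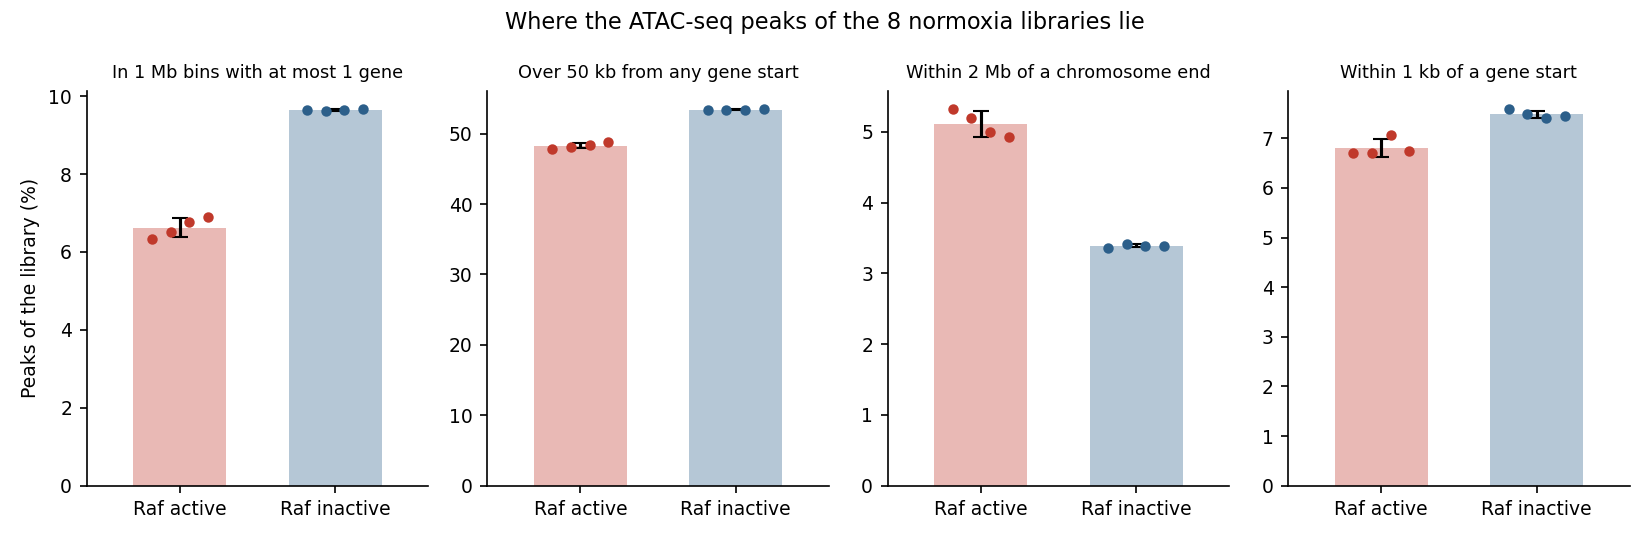
Percent of each library's peaks in 4 kinds of place, with 1 point per library, bars at the mean and lines at 1 SD (n = 4 each). The Raf-active libraries sit between 6.33 and 6.90% in gene-poor bins, all below the Raf-inactive libraries at 9.62 to 9.66%.

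The share of peaks also shifted between chromosomes. Of 23 chromosomes, 12 took a larger share of the peaks with Raf active, 10 took a smaller share, and chromosome 12 did not pass the test (exact permutation p = 0.0286 and adjusted p = 0.0299 for each of the 22, adjusted p = 0.343 for chromosome 12). Chromosome 19, the most gene-dense, held 3.53 ± 0.0759% of peaks with Raf active and 2.41 ± 0.0180% with Raf inactive, a share 46.3% higher. Chromosome 22 held 2.29 ± 0.0558% with Raf active and 1.61 ± 0.0160% with Raf inactive, 42.0% higher. Chromosomes 16, 17 and 20 were higher by 28.7, 27.4 and 23.7%. At the other end, chromosome 4 held 3.99 ± 0.0915% with Raf active and 5.43 ± 0.0308% with Raf inactive, a change of -26.6%, and chromosome 13 changed by -20.3%. Across the 23 chromosomes, the change in share had a Pearson r of 0.78 and a Spearman rho of 0.79 with genes per Mb, as a description, since all chromosomes come from the same 8 libraries.

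**Figure D2:**
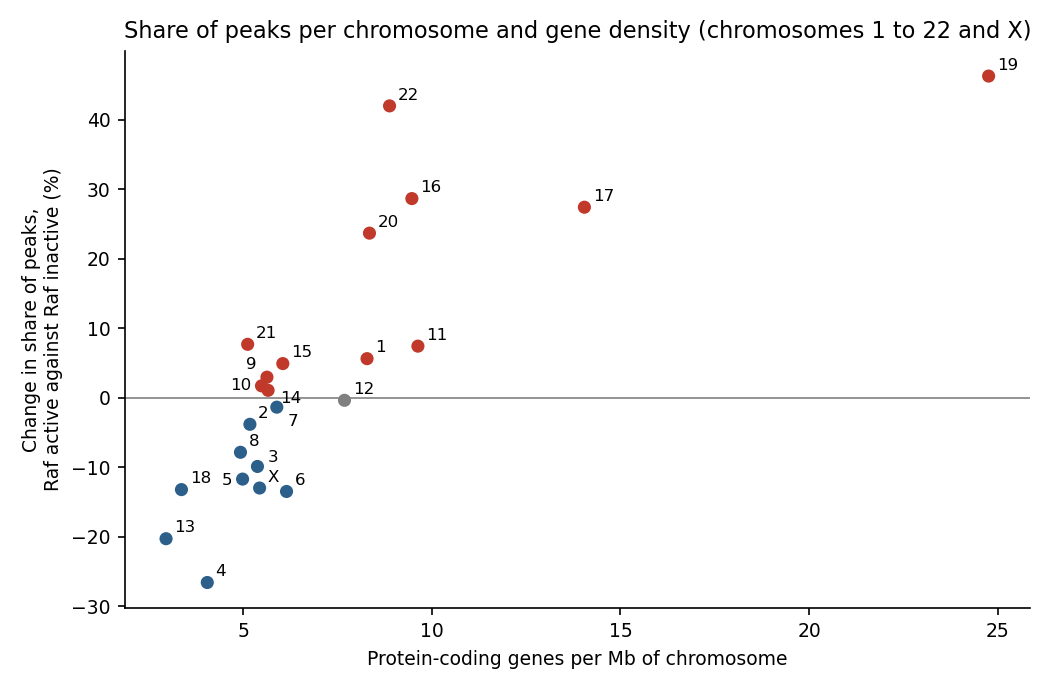
Change in a chromosome's share of peaks, Raf active against Raf inactive in percent, against its protein-coding genes per Mb, 1 point per chromosome (red higher, blue lower, grey not past the test). Chromosome 19 is at 46.3% with 24.8 genes per Mb and chromosome 4 at -26.6% with 4.05.

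Within chromosomes, the change was followed over 1 Mb bins. Of 2437 bins tested in limma on log2 of the scaled number of peaks plus 1, 840 (34.5%) rose and 1302 (53.4%) fell at an adjusted p below 0.05. Without the scaling of every library to the same total, 1073 rose and 1018 fell, so the split between directions depends on that scaling. Among the 127 bins with 0 genes, 10 rose and 108 fell, with a median log2 change of -0.84. Among the 201 bins with over 20 genes, 177 rose and 11 fell, with a median of 0.49, beside -0.16 over all bins.

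**Figure D3:**
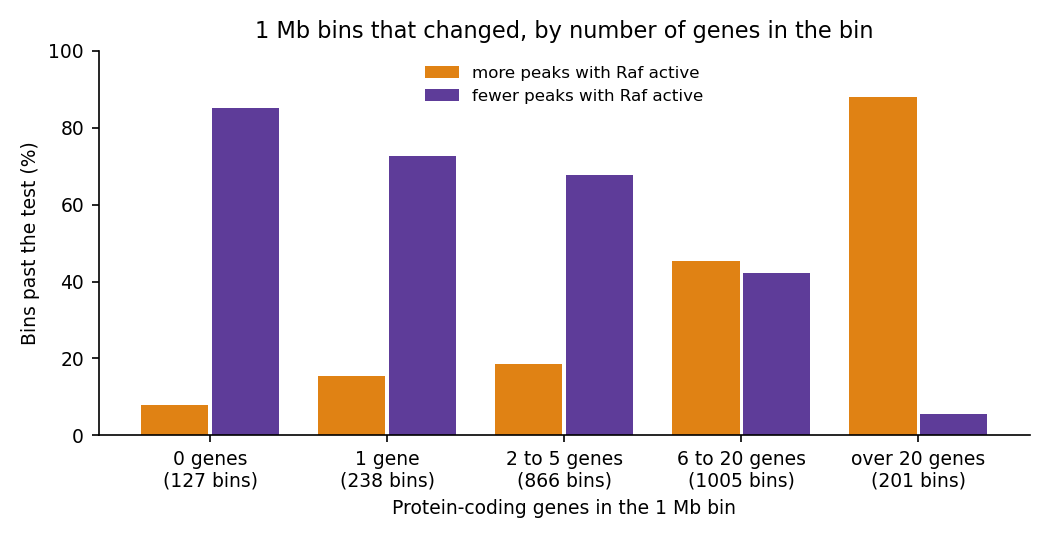
Percent of 1 Mb bins with more (orange) or fewer (purple) peaks with Raf active, by number of protein-coding genes in the bin, called in limma at an adjusted p below 0.05. Falls outnumber rises 108 to 10 in the 127 bins with 0 genes, and rises outnumber falls 177 to 11 in the 201 bins with over 20.

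Falling bins formed 400 unbroken runs, of which 88 had 5 bins or more, and rising bins formed 230 runs, of which 59 had 5 or more. The longest run of falling bins covered chromosome 4 from 136000001 to 160000000 (hg38), 24 bins with 92 genes, whose mean scaled peaks summed to 1078 with Raf active and 1826 with Raf inactive. A run on chromosome 5 from 106000001 to 127000000 fell by 42.3%, to 807 scaled peaks with Raf active, against 1398 with Raf inactive. It holds the bin with the largest fall, from 117000001 to 118000000, which had 0, 0.922, 0.983 and 0.915 scaled peaks in the Raf-active libraries, against 39.4, 35.4, 39.4 and 38.7 in the Raf-inactive libraries. This megabase was nearly bare of peaks in every Raf-active library. The longest run of rising bins covered chromosome 1 from 5000001 to 49000000, 44 bins with 587 genes, with 6431 scaled peaks with Raf active and 4543 with Raf inactive. Chromosome 1 changed in both directions, with falling runs of 19 bins from 83000001 to 102000000, 15 from 162000001 to 177000000 and 16 from 184000001 to 200000000. Runs of 21 and 20 rising bins lay on chromosome 19, from 35000001 to 56000000 and from 1 to 20000000. The largest rise in a single bin was on chromosome 22 from 48000001 to 49000000, which contains TAFA5 and had 26.1, 22.1, 18.7 and 21.95 scaled peaks in the Raf-active libraries, against 4.25, 4.29, 3.20 and 2.09 in the Raf-inactive libraries.

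Peaks of the series were merged into regions, of which 310331 had a peak in at least 1 normoxia library. A region was called gained when all 4 Raf-active and 0 of 4 Raf-inactive libraries had a peak in it, and lost in the opposite case. By this rule 42240 regions (13.6%) were gained and 31833 (10.3%) were lost, while 88051 were open in all 8 libraries. At matched depth 31652 were gained and 32493 lost. Only 1.40% of gained and 0.905% of lost regions lay within 1 kb of a gene start, beside 11.97% of those open in all 8 and 4.49% of all 310331. Lost regions lay in gene-poor bins in 15.6% of cases and more than 50 kb from a start in 64.6%, against 6.24 and 49.0% of gained regions and 8.60 and 52.4% of all. Gained regions were weak peaks in their own libraries, with a median fold, as the authors' files give it, of 4.61 to 4.82, beside 5.55 to 6.07 over all peaks of the same Raf-active lists. The fold in lost regions was 6.44 to 6.67, beside 6.44 to 6.65 over all peaks of the Raf-inactive lists.

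The hypoxia libraries took no part in the rule, though their peaks took part in merging the regions. A peak was present in all 4 Raf-active hypoxia libraries at 63.1% of gained and 9.09% of lost regions, beside 49.1% of all regions of normoxia. No peak was present in any Raf-inactive hypoxia library at 84.1% of gained and 8.97% of lost regions, beside 42.6% of all. Depth moved with the Raf state in hypoxia too. The background pileup was 6.53 to 8.34 in Raf-active and 4.61 to 5.02 in Raf-inactive hypoxia libraries, and its part in these shares was not tested. Of the 6 gained regions ranked best by p within their lists, the first lay 3647 bp from SLC11A1, at 218377803 to 218378626 on chromosome 2, with folds of 20.6, 20.5, 21.5 and 22.04 in the Raf-active libraries. SLC11A1 encodes the macrophage metal transporter NRAMP1. Another, at 47757051 to 47758023 on chromosome 17, lay 10929 bp from TBX21, the gene of the T-cell factor T-bet. Its folds were 20.6, 21.3, 21.7 and 21.3. The others lay in or near CPNE5, BAG3, MBOAT2 and ARID3B. All 6 had a peak in 4 of 4 Raf-active hypoxia libraries. Of the 4 Raf-inactive hypoxia libraries, 2 had a peak near SLC11A1 and 0 near TBX21. At CPNE5, BAG3, MBOAT2 and ARID3B the numbers were 4, 1, 3 and 0. The best-ranked lost region, at 117803356 to 117804023 on chromosome 5, lay in the bin with the largest fall described above and had folds of 22.6, 20.8, 19.5 and 21.6 in the Raf-inactive libraries. All 8 hypoxia libraries had a peak there. A lost region inside JAZF1, at 28106233 to 28107044 on chromosome 7, had folds of 19.2, 18.3, 17.7 and 18.3, and in hypoxia a peak in 1 of 4 Raf-active and 4 of 4 Raf-inactive libraries.

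Most promoters had the same state in all 8 libraries. Of 15812 genes with a listed start, 10461 had a peak within 500 bp of it in all 8 libraries and 3692 in none. A promoter was gained with Raf active at 249 genes (1.57%) and lost at 174 (1.10%), with 218 and 201 at matched depth. A peak just outside the window can mimic a change, and 193 gained and 144 lost promoters kept the same state within 1000 bp. Both conditions together held for 142 gained and 117 lost promoters. The loci of gained promoters mostly rose in their number of peaks, 141 of 203 tested with 10 falls, and those of lost promoters mostly fell, 94 of 124 tested with 8 rises. These counts share the peaks that defined the promoters and are no separate evidence.

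Most promoters of the senescence, Raf and cell cycle lists were open in both Raf states. Of 33 RAF-ERK cascade genes with a listed start, 31 had an open promoter in all 8 libraries, as did all 37 cell cycle and replication genes. List members with a gained promoter were IL33, CCL3 and CCL20 among the SASP cytokines, the p53 target BBC3, which encodes the death protein PUMA, and the endothelial receptor TIE1. MAP2K6, a kinase that activates p38, and RUNX2, a skeletal transcription factor, had lost promoters. BBC3 had peaks within 1000 bp of its start in all 8 libraries, and TIE1 had a peak in only 2 of 4 Raf-active libraries at matched depth, so both depend on those settings. The other 5 kept their state under both. CCL3 has near-identical copies beside it, and the reads of these copies may be shared.

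IL33 encodes a cytokine that is held in the nucleus and released as an alarm signal. Its promoter peak had folds of 14.5, 13.3, 14.8 and 16.1 in the Raf-active libraries and no peak in the Raf-inactive libraries. The CCL3 promoter, of a macrophage chemokine, had folds of 10.6, 11.1, 8.99 and 9.67 in the Raf-active libraries and no peak in the Raf-inactive libraries. The CCL20 peak was weak, with folds of 1.99, 1.74, 2.23 and 2.10. The MAP2K6 promoter had no peak in the Raf-active libraries and folds of 12.9, 13.1, 13.5 and 13.4 in the Raf-inactive libraries, and was open in all 8 hypoxia libraries. Among the 8 gained promoters ranked best by p, DOK3, an adaptor of immune cells, SLAMF8, a receptor of myeloid cells, and the olfactory receptor gene OR1J1 kept their state under both settings. DOK3 had folds of 13.02, 13.3, 13.7 and 14.9 in the Raf-active libraries. Among the 8 best-ranked lost promoters, MAP2K6, TRAM1L1 and ENTPD1, which encodes the ATP-degrading enzyme CD39, did so. ENTPD1 had folds of 11.8, 11.9, 15.8 and 11.2 in the Raf-inactive libraries.

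Gained promoters held TGANTCA, a loose form of the AP-1 motif, more often than promoters as a whole and were poorer in CpG. Any base was allowed at N, so TGAATCA and TGATTCA count as matches too. In windows of 250 bases before to 50 after the start, read on both strands from RefSeq GRCh38.p14 sequences, TGANTCA was present in 29 of 249 gained promoters (11.6%) and 11 of 174 lost promoters (6.32%). The share was 8.13% in the 3692 promoters without a peak in any library, 4.50% in those open in all 8 and 5.76% in all 15812. The ETS motif CCGGAAG was in 3.61% of gained and 1.72% of lost promoters, and in 14.2% of all. GGGCGGG, bound by SP and KLF factors, was in 28.9% of gained and 17.8% of lost promoters, and in 44.4% of all. TATAAA was in 14.5% of gained, 18.4% of lost and 9.64% of all promoters. The median number of CG pairs was 6 in gained and 9 in lost promoters, against 27 in promoters open in all 8 libraries. These are descriptions of letters, and the classes differ in base composition.

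The sequences below show the 250 bases before the start, 5′ to 3′ on the strand of the gene (RefSeq, GRCh38.p14), for the 4 best-ranked gained promoters that hold TGANTCA and kept their state under both settings, a choice made after their values were seen. Capitals mark TGANTCA and TATAAA. SLAMF8 is at chr1:159826623-159826872 (plus strand), MSMP at chr9:35754277-35754526 (minus), LAT at chr16:28984553-28984802 (plus) and LRRC74A at chr14:76826158-76826407 (plus).
SLAMF8: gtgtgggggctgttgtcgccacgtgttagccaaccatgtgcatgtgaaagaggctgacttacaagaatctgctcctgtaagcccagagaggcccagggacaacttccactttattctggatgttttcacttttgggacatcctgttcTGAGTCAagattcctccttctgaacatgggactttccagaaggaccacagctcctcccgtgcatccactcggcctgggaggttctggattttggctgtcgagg
MSMP: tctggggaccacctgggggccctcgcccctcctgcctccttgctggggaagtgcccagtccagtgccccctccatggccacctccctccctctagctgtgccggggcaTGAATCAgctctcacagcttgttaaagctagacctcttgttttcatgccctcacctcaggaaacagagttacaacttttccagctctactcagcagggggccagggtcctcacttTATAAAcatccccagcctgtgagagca
LAT: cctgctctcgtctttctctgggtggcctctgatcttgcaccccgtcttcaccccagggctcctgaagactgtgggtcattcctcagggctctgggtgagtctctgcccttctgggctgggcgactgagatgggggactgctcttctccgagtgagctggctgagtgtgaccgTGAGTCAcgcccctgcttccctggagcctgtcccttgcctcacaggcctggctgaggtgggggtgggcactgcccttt
LRRC74A: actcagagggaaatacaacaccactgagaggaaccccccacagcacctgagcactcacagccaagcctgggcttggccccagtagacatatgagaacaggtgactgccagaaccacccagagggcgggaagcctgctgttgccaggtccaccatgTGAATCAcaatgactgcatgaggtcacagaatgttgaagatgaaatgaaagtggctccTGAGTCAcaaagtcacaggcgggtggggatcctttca
The TGANTCA match begins 103 bases before the start of SLAMF8, 142 before that of MSMP and 78 before that of LAT, and LRRC74A has matches at 95 and 37 bases. LAT encodes an adaptor of the T-cell receptor, and its promoter peak had folds of 13.3, 13.2, 10.7 and 12.3 in the Raf-active libraries with no peak in the Raf-inactive libraries.

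For comparison, the 250 bases before the starts below hold no TGANTCA. IL33 (chr9:6214899-6215148, plus strand) and CCL3 (chr17:36090144-36090393, minus) are gained members of the SASP list. MAP2K6 (chr17:69414447-69414696, plus) and TRAM1L1 (chr4:117085577-117085826, minus) are the best-ranked lost promoters that kept their state under both settings. The promoters printed before were chosen for holding TGANTCA, so the choice itself set this contrast. In the full windows 11 of 174 lost promoters held TGANTCA.
IL33: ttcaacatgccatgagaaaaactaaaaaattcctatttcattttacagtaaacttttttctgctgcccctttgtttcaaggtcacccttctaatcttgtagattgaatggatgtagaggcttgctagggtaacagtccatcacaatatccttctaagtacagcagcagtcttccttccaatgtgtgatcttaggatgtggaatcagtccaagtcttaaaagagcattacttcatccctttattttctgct
CCL3: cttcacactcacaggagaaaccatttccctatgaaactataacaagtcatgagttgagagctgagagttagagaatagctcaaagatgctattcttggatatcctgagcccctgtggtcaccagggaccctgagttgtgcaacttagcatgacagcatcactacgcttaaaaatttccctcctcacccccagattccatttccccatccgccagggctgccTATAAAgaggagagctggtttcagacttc
MAP2K6: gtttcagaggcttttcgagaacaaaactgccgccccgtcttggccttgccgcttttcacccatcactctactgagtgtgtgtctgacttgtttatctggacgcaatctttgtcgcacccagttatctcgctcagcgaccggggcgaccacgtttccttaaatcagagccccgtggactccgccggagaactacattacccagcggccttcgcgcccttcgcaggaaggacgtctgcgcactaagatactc
TRAM1L1: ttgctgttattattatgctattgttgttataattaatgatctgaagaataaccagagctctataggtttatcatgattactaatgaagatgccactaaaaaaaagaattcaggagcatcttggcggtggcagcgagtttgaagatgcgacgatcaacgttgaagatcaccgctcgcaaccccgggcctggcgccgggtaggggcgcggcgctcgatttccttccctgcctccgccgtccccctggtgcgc
In CCL3 the letters TATAAA stand just before the start, and the other 3 hold neither motif in these bases.

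To set the change at single genes beside the rest of the genome, peaks were counted in each gene body plus 10 kb on each side, called a locus below, and scaled so that every library had the same total. Of 15276 loci tested in limma, 5723 (37.5%) rose and 3917 (25.6%) fell at an adjusted p below 0.05, so that 63.1% of all loci changed. The median log2 change was 0.10. Without scaling 8679 rose and 2490 fell, and the median was 0.33, so a log2 change is relative to a total that itself differs. Below, ± after a mean is the SD over 4 libraries and ± after a log2 change its standard error from limma. Without scaling, rises outnumbered falls in every list described below except the histone genes, so the balance within a list is also relative to that total. Neighbouring loci share peaks. Counts of gained or lost regions in a locus come from the same peaks as its change, so they are no separate evidence. Of all regions of normoxia 13.6% were gained and 10.3% lost.

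**Figure D4:**
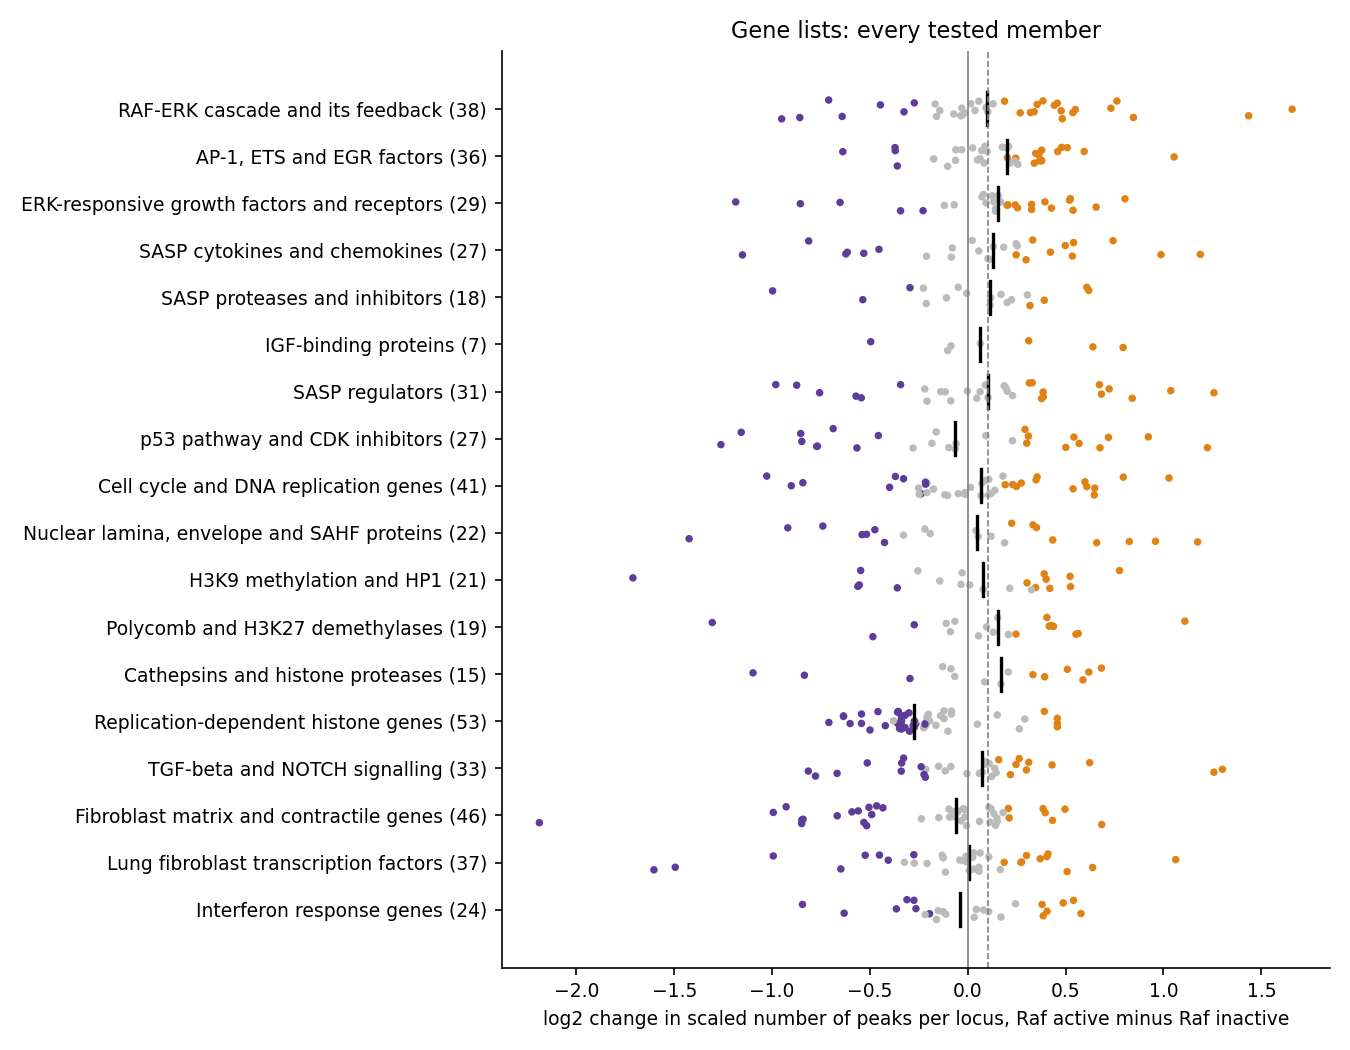
log2 change in scaled peaks per locus, Raf active minus Raf inactive, for every tested member of 18 gene lists (orange rose, purple fell, grey not past the test), with the list's median as a black bar, 0 as a solid line and the median of all loci, 0.10, as a dashed line. Most lists spread to both sides, and the replication-dependent histone genes lie mostly below 0.

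Genes of the RAF-ERK cascade moved in both directions. Of 38 tested, 17 rose and 7 fell, beside 37.5 and 25.6% of all loci, with a median log2 change of 0.10. DUSP4, a phosphatase that switches off ERK, had 8.02, 11.5, 8.52 and 7.95 scaled peaks in the Raf-active libraries, against 2.16, 2.18, 3.25 and 3.20 in the Raf-inactive libraries, a log2 change of 1.44 ± 0.14 (limma adjusted p = 1.17e-07). The groups were far apart. PEBP1, which encodes the Raf kinase inhibitor protein, rose by 1.66 ± 0.21, with 5.63 ± 1.13 scaled peaks with Raf active and 1.08 ± 0.0106 with Raf inactive. SPRY2, another feedback inhibitor, rose by 0.85 ± 0.14. MAP2K1, encoding MEK1, rose by 0.73 ± 0.10, but by 0.33 with an adjusted p of 0.0866 (limma) at matched depth.

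Other genes of the pathway fell in their number of peaks. DUSP6, the cytosolic ERK phosphatase, had 2.24 ± 0.481 scaled peaks with Raf active and 4.86 ± 0.654 with Raf inactive. Its log2 change was -0.86 ± 0.13. The bases covered by its peaks, however, rose by 0.33 on the log2 scale (limma adjusted p = 1.26e-05), so its direction depends on the measure. Of the 4 regions in its locus 0 were gained and 0 lost. BRAF itself had 10.7, 8.82, 10.4 and 10.6 scaled peaks in the Raf-active libraries, against 21.6, 21.8, 18.4 and 20.2 in the Raf-inactive libraries, a log2 change of -0.95 ± 0.09 (limma adjusted p = 1.48e-07). Reads of the fusion construct were not told apart from those of the endogenous gene.

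AP-1, ETS and EGR factor loci rose more often than they fell, 14 against 4 of 36 tested, with a median of 0.20 and a share of rises of 38.9%, beside 37.5% of all loci. At matched depth 21 rose and 3 fell of 36, beside 5493 rises and 3537 falls among all 14255 loci tested. In lists of equal length 23 rose and 3 fell, beside 5738 rises and 3645 falls among all 14383. SRF, which drives immediate early genes, rose by 1.05 ± 0.11, with 7.90 ± 1.54 scaled peaks with Raf active and 3.24 ± 0.0317 with Raf inactive. MAFF rose by 0.59 ± 0.15, EGR1 by 0.38 ± 0.10 and the AP-1 subunit FOSL1 by 0.34 ± 0.11, while the ETS factor ETV5 fell by 0.64 ± 0.10 on the log2 scale. FOS (0.22 ± 0.10), JUN (0.05 ± 0.09) and MYC (0.02 ± 0.11) did not pass the test, though FOS was at 0.28 with a limma adjusted p of 0.0324 without Raf-inactive replicate 4. Of 29 ERK-responsive growth factors and receptors 13 rose (44.8%) and 5 fell (17.2%), beside 37.5 and 25.6% of all loci. AREG (0.80 ± 0.11) and TGFA (0.66 ± 0.16), ligands of the EGF receptor, rose, while IGF1 (-1.19 ± 0.09) and FGF7 (-0.86 ± 0.12) fell.

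Loci of SASP cytokines were also mixed, with 10 rises (37.0%) and 6 falls (22.2%) among 27 tested and a median of 0.13. These shares were near the 37.5 and 25.6% of all loci. IL1B, which with IL1A drives the secretory programme, had 8.91, 8.82, 9.47 and 9.72 scaled peaks in the Raf-active libraries, against 4.32, 3.27, 3.25 and 3.20 in the Raf-inactive libraries, a log2 change of 1.19 ± 0.13 (limma adjusted p = 6.07e-07). Of the 9 regions in its locus 5 were gained and 0 lost, which restates the same peaks. IL1A rose by 0.42 ± 0.08, but changed by -0.27 among peaks with a fold of at least 5. The neutrophil chemokine CXCL8 rose by 0.53 ± 0.10 and IL13, a type 2 cytokine, by 0.99 ± 0.17. CCL2 (-0.53 ± 0.08), IL15 (-0.81 ± 0.12) and IL7 (-1.15 ± 0.13) fell.

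IL6, the most used marker of the SASP, had 3.56, 4.41, 3.79 and 4.42 scaled peaks in the Raf-active libraries, against 3.24, 3.27, 3.25 and 3.20 in the Raf-inactive libraries. The groups did not overlap, as at 56.9% of all loci, and the log2 change of 0.25 ± 0.12 missed the threshold (limma adjusted p = 0.0745), and at matched depth it was 0.39 with an adjusted p of 0.00242. CXCL1 changed by 0.18 ± 0.13 and INHBA by 0.11 ± 0.09, without passing the test. Without Raf-inactive replicate 2, CXCL1 was at 0.31 with a limma adjusted p of 0.0347.

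Of 18 protease and inhibitor loci 4 rose and 3 fell, where 63.1% of all loci changed. At matched depth, however, 8 rose and 4 fell, where 9030 of all 14255 loci tested changed. The gelatinase gene MMP9 (0.62 ± 0.12) and PLAT, encoding tissue plasminogen activator (0.61 ± 0.11), rose, while MMP14 (-0.997 ± 0.10) and SERPINE2 (-0.54 ± 0.10) fell. The collagenase and stromelysin genes MMP1 (0.11 ± 0.08) and MMP3 (-0.01 ± 0.12) did not pass. Of 7 IGF-binding protein genes 3 rose (42.9%) and 1 fell (14.3%), beside 37.5 and 25.6% of all loci. The rises were IGFBP5 (0.79 ± 0.15), IGFBP2 (0.64 ± 0.09) and IGFBP3 (0.31 ± 0.10), of which the first 2 have overlapping windows. Without Raf-inactive replicate 2, IGFBP3 was at 0.23 with a limma adjusted p of 0.0539.

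Among SASP regulators 11 rose (35.5%) and 6 fell (19.4%) of 31, beside 37.5 and 25.6% of all loci. NOTCH1, which governs an early form of the senescent secretome, had 16.03, 15.9, 16.1 and 16.8 scaled peaks in the Raf-active libraries, against 6.48, 5.45, 6.49 and 6.39 in the Raf-inactive libraries, a log2 change of 1.26 ± 0.08 (limma adjusted p = 1.22e-09). Among peaks with a fold of at least 5 the change at NOTCH1 was -0.03, so it lay in weak peaks. CEBPB, a factor that binds the promoters of SASP genes, rose by 1.04 ± 0.16, with 4.28 ± 0.524 scaled peaks with Raf active and 1.62 ± 0.635 with Raf inactive. NFKB1, encoding an NF-kB subunit, fell by 0.87 ± 0.08 on the log2 scale, to 12.4 ± 1.24 scaled peaks with Raf active, against 23.5 ± 1.59 with Raf inactive. MAP3K7, encoding the kinase TAK1, changed by -0.98 ± 0.21. NAMPT, the enzyme that recycles NAD, had 12.5, 11.5, 12.3 and 9.72 scaled peaks in the Raf-active libraries, against 1.08, 1.09, 2.16 and 2.13 in the Raf-inactive libraries (log2 change 2.28 ± 0.17).

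The arrest genes at the INK4 locus, CDKN2A and CDKN2B, both rose. CDKN2A, which encodes p16 and ARF, had 12.5, 13.2, 11.4 and 13.3 scaled peaks in the Raf-active libraries, against 5.40, 6.54, 5.41 and 7.46 in the Raf-inactive libraries, a log2 change of 0.92 ± 0.12 (limma adjusted p = 3.39e-06). CDKN2B, which encodes p15, had 7.13, 6.17, 6.63 and 7.95 scaled peaks in the Raf-active libraries, against 3.24, 2.18, 2.16 and 2.13 in the Raf-inactive libraries, a log2 change of 1.22 ± 0.10 (limma adjusted p = 2.88e-08). Neither gene's groups overlapped, but their windows share peaks. Among peaks with a fold of at least 5 the change at CDKN2A was 0.02 with an adjusted p of 0.805 (limma), so the added peaks there were weak ones.

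The p53 and CDK inhibitor list as a whole had 10 rises (37.0%) and 9 falls (33.3%) among 27, beside 37.5 and 25.6% of all loci. Its median was -0.06, but 0.11 at matched depth and 0.16 without scaling. RB1, the target of p16 signalling, had 9.80, 5.29, 4.73 and 7.07 scaled peaks in the Raf-active libraries, against 19.4, 16.4, 16.2 and 15.98 in the Raf-inactive libraries, a log2 change of -1.26 ± 0.17 (limma adjusted p = 5.53e-06), and FAS, a death receptor, changed by -1.16 ± 0.10. CDKN1A, which encodes p21, had 6.24, 7.05, 4.73 and 4.42 scaled peaks in the Raf-active libraries, against 5.40, 4.36, 4.33 and 4.26 in the Raf-inactive libraries. Its groups overlapped and its log2 change of 0.23 ± 0.14 did not pass (limma adjusted p = 0.155), while at matched depth it was 0.34 with an adjusted p of 0.0388. Of 41 cell cycle and replication genes 13 rose and 9 fell, with CCNE1 (1.03 ± 0.15) and MCM5 (0.79 ± 0.12) among the rises and RRM1 (-1.03 ± 0.12) and BUB1 (-0.90 ± 0.12) among the falls. CCND1, encoding cyclin D1, changed by 0.12 ± 0.09 and did not pass.

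**Figure D5:**
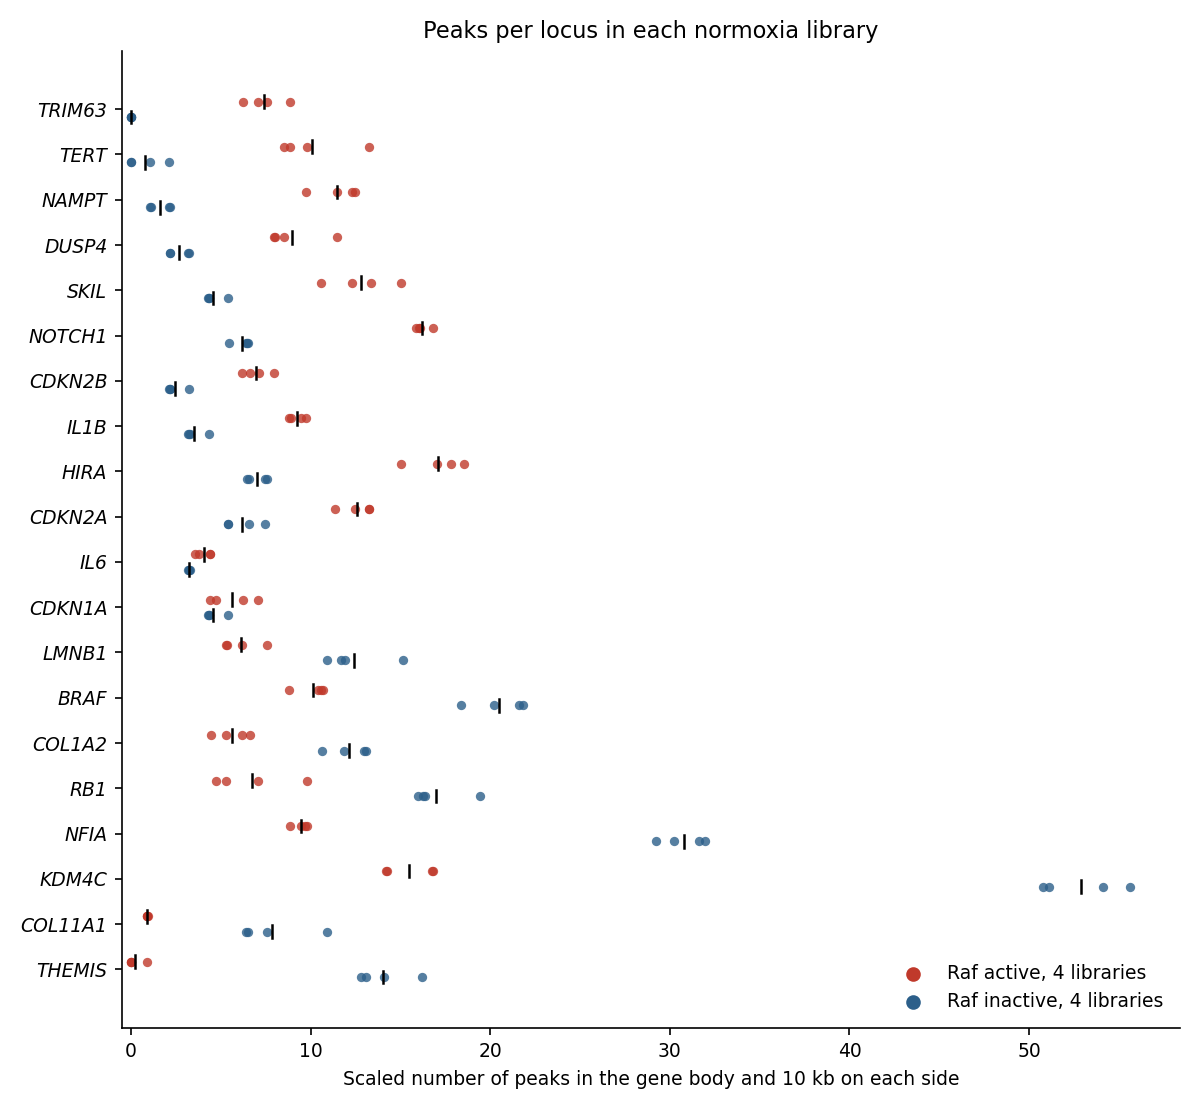
Scaled number of peaks in 20 loci in each of the 4 Raf-active (red, above) and 4 Raf-inactive (blue, below) normoxia libraries, with black ticks at the means. TRIM63 had 0 peaks in every Raf-inactive library, and THEMIS 0 in 3 of the 4 Raf-active libraries.

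Loci of lamina and heterochromatin proteins split. LMNB1, encoding the lamin B1 that senescent cells lose, had 5.34, 6.17, 7.58 and 5.30 scaled peaks in the Raf-active libraries, against 15.1, 10.9, 11.9 and 11.7 in the Raf-inactive libraries, a log2 change of -0.92 ± 0.11 (limma adjusted p = 2.30e-06). SYNE1, encoding a very large nuclear envelope protein, had 22.5 ± 1.80 scaled peaks with Raf active and 62.1 ± 3.05 with Raf inactive, a change of -1.42 ± 0.07. HIRA, a histone chaperone needed to form senescence-associated heterochromatin foci, had 17.8, 18.5, 17.04 and 15.02 scaled peaks in the Raf-active libraries, against 6.48, 6.54, 7.58 and 7.46 in the Raf-inactive libraries. The log2 change of HIRA was 1.17 ± 0.12 (limma adjusted p = 4.42e-07), and that of its partner UBN1 0.96 ± 0.11. HMGA2, a component of these foci, changed by 0.33 ± 0.08 in the full lists and by -0.79 among peaks with a fold of at least 5, so its direction depends on that limit. LMNA changed by 0.04 ± 0.07. Of the 22 tested genes of this list 8 rose (36.4%) and 7 fell (31.8%), beside 37.5 and 25.6% of all loci.

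Of 21 genes of H3K9 methylation and HP1, 8 rose (38.1%) and 5 fell (23.8%), beside 37.5 and 25.6% of all loci. KDM4C, a demethylase of H3K9, had 14.3, 16.8, 14.2 and 16.8 scaled peaks in the Raf-active libraries, against 50.8, 55.6, 54.1 and 51.1 in the Raf-inactive libraries, a log2 change of -1.71 ± 0.07 (limma adjusted p = 1.06e-11). Of its 64 regions 21 were lost and 1 was gained, again from the same peaks. CBX1, encoding HP1 beta, rose by 0.78 ± 0.11, the methyltransferase genes SETDB1 and SUV39H1 by 0.52 ± 0.09 and 0.35 ± 0.12, and SETDB2 fell by 0.56 ± 0.08 on the log2 scale. The groups overlapped at SUV39H1, whose change was 0.28 with a limma adjusted p of 0.0548 without Raf-inactive replicate 1 and 0.29 with 0.0534 without Raf-inactive replicate 2. Of 19 Polycomb and H3K27 demethylase genes 8 rose (42.1%) and 3 fell (15.8%), beside the same shares of all loci. EZH1, one of the catalytic subunits, rose by 1.11 ± 0.13, and KDM6A, a demethylase gene on chromosome X, changed by -1.31 ± 0.09. MTF2 changed by -0.49 ± 0.14, and EZH2 (0.13 ± 0.10) did not pass.

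Of 15 tested cathepsins and other proteases that can clip histone tails, 6 rose (40%) and 3 fell (20%). These shares were near the 37.5 and 25.6% of all loci. CTSL, encoding cathepsin L, rose by 0.59 ± 0.09, with 4.50 ± 0.155 scaled peaks with Raf active and 2.70 ± 0.629 with Raf inactive. CTSC changed by -0.83 ± 0.11, with 6.53 ± 0.855 scaled peaks with Raf active and 12.4 ± 1.45 with Raf inactive.

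Replication-dependent histone genes were the list with most falls. Of 53 tested 30 fell and 4 rose, beside 25.6 and 37.5% of all loci, with a median log2 change of -0.27. Without scaling, though, 7 fell and 7 rose with a median of -0.06. At matched depth 20 fell and 1 rose, beside 3537 falls and 5493 rises among all 14255 loci tested. The falls were shallow, the largest being H3C12 at -0.71 ± 0.08 and H2AC17 at -0.64 ± 0.07. H3C12 had 2.94 ± 0.566 scaled peaks with Raf active and 5.40 ± 0.0528 with Raf inactive. Among peaks with a fold of at least 5, H2AC17 changed by 0.10. These genes sit side by side in clusters, their windows overlap and several share all their peaks, so their count is not a count of separate events, and 52 of 58 with a listed start had an open promoter in all 8 libraries.

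Of 33 TGF-beta and NOTCH genes 10 rose (30.3%) and 10 fell (30.3%), beside 37.5 and 25.6% of all loci, while without scaling 19 rose and 3 fell. SKIL, a repressor of TGF-beta signalling, had 13.4, 10.6, 12.3 and 15.02 scaled peaks in the Raf-active libraries, against 4.32, 4.36, 5.41 and 4.26 in the Raf-inactive libraries, a log2 change of 1.301 ± 0.12 (limma adjusted p = 9.40e-08). SMAD4 (-0.78 ± 0.12) and the receptor gene ACVR1 (-0.81 ± 0.07) fell.

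Fibroblast matrix and contractile genes fell more often than they rose, 15 (32.6%) against 7 (15.2%) of 46, beside 25.6 and 37.5% of all loci. Their median was -0.06, beside 0.10 over all loci. Without scaling 14 fell and 21 rose with a median of 0.18, so this balance depends on the scaling. COL1A2, a chain of type I collagen, had 4.45, 5.29, 6.63 and 6.19 scaled peaks in the Raf-active libraries, against 11.9, 13.1, 12.99 and 10.7 in the Raf-inactive libraries, a log2 change of -0.99 ± 0.11 (limma adjusted p = 6.29e-07). Among peaks with a fold of at least 5 it changed by -0.14 with an adjusted p of 0.415 (limma). COL1A1, the other chain, changed by -0.01 ± 0.10. COL11A1 had 0.891, 0.882, 0.947 and 0.884 scaled peaks in the Raf-active libraries, 1 peak in each, against 7.56, 10.9, 6.49 and 6.39 in the Raf-inactive libraries. The smooth muscle actin gene ACTA2 changed by -0.85 ± 0.08, in a window that overlaps that of FAS. THBS2 rose by 0.68 ± 0.09, and COL6A3 by 0.50 ± 0.11, with -0.39 among peaks with a fold of at least 5.

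Of 37 transcription factors of lung fibroblasts 10 rose and 8 fell, with a median of 0.01. NFIA had 9.80, 9.70, 9.47 and 8.84 scaled peaks in the Raf-active libraries, against 30.2, 31.6, 29.2 and 32.0 in the Raf-inactive libraries, a log2 change of -1.60 ± 0.08 (limma adjusted p = 9.31e-11). MEF2C changed by -1.49 ± 0.12. ZEB1, a factor of the mesenchymal state, rose by 1.06 ± 0.11, with 43.5 ± 6.34 scaled peaks with Raf active and 20.2 ± 2.62 with Raf inactive. Of 24 interferon response genes 6 rose (25%) and 7 fell (29.2%), beside the same shares of all loci. Without scaling 10 rose and 2 fell.

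The largest rises over all loci were at genes with few or no peaks in Raf-inactive cells. A choice by log2 change favours such loci, since values near 0 in 1 group give the largest changes. They also passed the filter of a mean of at least 3 peaks only through the libraries where they were high. The low values are therefore no separate finding. TRIM63, a muscle ubiquitin ligase, had 6.24, 7.05, 7.58 and 8.84 scaled peaks in the Raf-active libraries and 0 in each Raf-inactive library, and 7 of the 9 regions in its locus were gained. Its fitted log2 change of 3.07 depends on the pseudocount of 1 peak. TERT, the catalytic subunit of telomerase, had 9.80, 13.2, 8.52 and 8.84 scaled peaks in the Raf-active libraries, against 0, 0, 1.08 and 2.13 in the Raf-inactive libraries (log2 change 2.78 ± 0.31), and lies within 2 Mb of the end of chromosome 5. MATK, a kinase that inhibits Src family kinases, had 8.30 ± 2.25 scaled peaks with Raf active and 0.271 ± 0.541 with Raf inactive. RASAL1, a GTPase-activating protein for Ras, had 12.8 ± 1.72 with Raf active and 1.89 ± 0.538 with Raf inactive, and the nicotinic receptor gene CHRNA4 5.61 ± 1.78 with Raf active and 0.270 ± 0.540 with Raf inactive.

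The largest falls were at loci left with few or no peaks in Raf-active cells. The same limits of choice and filter apply here, and any change to 0 peaks depends on the pseudocount of 1 peak. THEMIS, which acts in T-cell development, had 0, 0, 0 and 0.884 scaled peaks in the Raf-active libraries, against 16.2, 13.1, 14.1 and 12.8 in the Raf-inactive libraries (log2 change -3.68 ± 0.17). HHLA2, P2RY12, LMO3, SPARCL1 and ADAMTS19 had 0 peaks in every Raf-active library, against means of 10.3 ± 1.93, 9.44 ± 0.485, 9.45 ± 1.08, 7.82 ± 1.61 and 8.37 ± 1.69 scaled peaks in the Raf-inactive libraries. ABCC9, a subunit of ATP-sensitive potassium channels, had 1.12 ± 0.431 scaled peaks with Raf active and 15.7 ± 0.744 with Raf inactive, and 10 of its 14 regions were lost.

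Markers of other cell types were read the same way. Of 14 fibroblast markers, all of which passed the filter of a mean of at least 3 peaks, 1 rose and 4 fell, with a median of -0.02, while without scaling 7 rose and 3 fell with a median of 0.20. Of 11 tested blood markers 8 rose and 1 fell (median 0.50), beside 37.5 and 25.6% of all loci and a median of 0.10. Another 6 blood markers were not tested. Of 10 blood markers with a listed start, 0 had a gained promoter and 6 had no promoter peak in any of the 8 libraries. Of 13 endothelial markers 7 rose and 3 fell (median 0.26), and of 14 neuronal and muscle markers 6 rose and 4 fell (median 0.24). Of 12 epithelial markers 4 rose and 2 fell (median 0.13). The same shares of all loci, 37.5 and 25.6%, stand beside each of these marker lists. GATA1, HBB, CD3E, SFTPA1 and NKX2-1 were among the markers too low to test. These values count peaks of a cell line in the neighbourhood of each gene, and the part of any other cell type in the results was not tested.

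The Raf change in normoxia was set beside that in hypoxia in the same limma fit. Of 15276 loci 2785 differed, with 1398 more positive and 1387 more negative in normoxia. At NAMPT the log2 change was 2.28 in normoxia and 0.89 in hypoxia, a difference of 1.39 ± 0.25. At CDKN2B the change was 1.22 in normoxia and 0.46 in hypoxia, a difference of 0.76 ± 0.15, while at DUSP4 it was 1.44 in normoxia and 1.31 in hypoxia, a difference of 0.13 that did not pass the test.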

How the data were processed

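ATAC-seq was made from 50,000 nuclei per sample with Tn5, per the labels' protocols. The submitters' processing notes name MACS2 and Bowtie2 with hg38, beside FastQC, cutadapt, Picard, SAMtools, bedtools and deepTools. Their versions, and any shift of reads for Tn5, are not given in the sources used here. The deposited peak lists, 1 per library, give for each peak a score, a fold (a ratio over local background) and −log10 p and q values from the authors' peak caller. Read counts were not used here, so the depth is known only as the background pileup recovered from fold and p.

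Distinct intervals on chromosomes 1 to 22 and X were kept. Shares per library were compared by two-sided exact permutation tests with Benjamini-Hochberg adjustment. Peaks per locus (gene body plus 10 kb) and per 1 Mb bin were scaled to the same total and tested as log2(peaks + 1) in limma 3.58.1 (R 4.3.3) over all 16 libraries with 4 group means, wherever the mean over libraries reached 3 peaks in a locus or 10 in a bin. Genes and promoters came from RefSeq GRCh38.p14. Other steps used Python 3.11.15, pandas 2.3.3 and scipy 1.17.1. The scripts were tested on simulated data. The text names genes of a core list, up to 2 largest rises and falls of each list, the 12 largest rises and falls over all loci, list members and the 8 best-ranked among changed promoters, and the 6 best-ranked regions and largest bins, or some of these. Members and lists were chosen with earlier results of these data known. Alternatives covered scaling, depth, peak strength, window, bin size, pseudocount, filters and left-out libraries. Some genes of the lists are counted in them but not reported here by name.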

Additional observations from a re-analysis of the deposited data

Results flagged for a closer look

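In 11 of 54 groups of 4 values examined, 1 library stood far from the other 3, where chance marks about 1 in 20. Numbers of peaks are whole before scaling, so at loci with few peaks a single added peak is enough. The share of peaks near gene starts was highest at 7.06% in Raf-active replicate 3, the library with the lowest background pileup of its group. Among Raf-active libraries the far values were 8.82 scaled peaks at BRAF (lowest), 11.5 at DUSP4 (highest), 0.947 at COL11A1 (highest) and 0.884 at THEMIS (highest). Among Raf-inactive libraries they were 5.40 at CDKN1A, 3.24 at CDKN2B, 4.32 at IL1B, 19.4 at RB1 and 5.41 at SKIL (each the highest of 4), and 5.45 at NOTCH1 (the lowest).

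The Raf change differed between normoxia and hypoxia at 37 of 95 named loci, beside 2785 of all 15276 loci. The call was the limma test of that difference at an adjusted p below 0.05 over all loci. Part of the named loci were chosen as the largest rises and falls in normoxia, and the same values enter the difference. Their count and signs are therefore no separate evidence. The difference in log2 change, normoxia minus hypoxia, was positive at 23 loci, with NAMPT 1.39, PEBP1 1.02, CXCL8 0.99, EZH1 0.96, IGFBP5 0.94, UBN1 0.87, IGFBP2 0.85, SKIL 0.84, CDKN2B 0.76, CEBPB 0.72, CDKN2A 0.69, NOTCH1 0.68, PLAT 0.68, SRF 0.64, HIRA 0.59, THBS2 0.54, SUV39H1 0.53, CBX1 0.50, INHBA 0.48, COL1A1 0.45, MAP2K1 0.45, SETDB1 0.41 and HMGA2 0.39. It was negative at 14 loci, with HHLA2 -1.72, THEMIS -1.45, LMO3 -1.18, P2RY12 -1.05, ABCC9 -0.93, KDM4C -0.74, NFIA -0.67, ETV5 -0.59, SYNE1 -0.55, SMAD4 -0.53, MEF2C -0.50, H3C12 -0.49, IGF1 -0.42 and H2AC17 -0.40. The part of depth in these differences was not tested.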

How the results depend on the processing

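The differences in gene-poor bins, near chromosome ends and beyond 50 kb kept their direction under every alternative, with -3.11 to -2.92, 1.65 to 1.78 and -5.22 to -4.90 percentage points when 1 library was left out. Near gene starts the difference was -0.767 to -0.648 without 1 library, -0.154 at matched depth and 0.0705 among peaks with a fold of at least 5. The difference in median length was -8.33 to -4.00 bp without 1 library, 14 at matched depth, 16.2 in lists of equal length, 15.8 with a fold of at least 5 and -17.5 with a -log10 q of at least 5, which alone passed the test. Without 1 library no chromosome was called (0 higher, 0 lower), since 4 against 3 cannot go below an exact permutation p of 0.0571. Leaving out 1 library gave 2107 to 2136 changed bins (823 to 836 rose, 1279 to 1307 fell), 9061 to 9283 changed loci (5309 to 5511 rose, 3728 to 3829 fell), 44293 to 47453 gained and 32497 to 34868 lost regions, and 257 to 287 gained and 183 to 198 lost promoters. Without scaling 8679 loci rose and 2490 fell. With windows of 50 kb 5910 loci fell, and in bins of 500 kb 3609 changed (1534 rose, 2075 fell), where more were tested. A fold of at least 5 left 24800 gained regions, and asking for a peak in 3 or more libraries of 1 group and 1 or fewer of the other gave 65563 gained regions, 446 gained and 316 lost promoters.

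Replicate numbers did not pair the libraries (same-numbered correlations of deviations -0.0119 to 0.00727), and with the replicate block 9080 loci (5459 rose, 3621 fell) and 2055 bins changed. Directions turned at these loci (log2 change), and except where a value in the report bears on it the cause was not tested. Without scaling COL1A1 was 0.23 and MMP3 0.22. With a fold of at least 5 COL1A1 was 0.40, COL6A3 -0.39, H2AC17 0.10, HMGA2 -0.79, IL1A -0.27, LMNA -0.17, MMP1 -0.16, MMP3 0.11 and NOTCH1 -0.031. In lists of equal length COL1A1 was 0.38, EZH2 -0.026 and MMP3 0.089, and at matched depth COL1A1 was 0.24 and MMP3 0.069. By bases covered DUSP6 was 0.33, IL6 -0.092 and MMP3 0.093. With windows of 50 kb CCNE1 was -0.0059, CXCL8 -0.031, EZH2 -0.17, IGFBP3 -0.024, INHBA -0.13, JUN -0.20 and SETDB1 -0.065. Without 1 library COL1A1 ranged from -0.088 to 0.050, LMNA from -0.0022 to 0.084, MMP3 from -0.039 to 0.030 and MYC from -0.021 to 0.072. Merging regions over the normoxia libraries alone was chosen after seeing the data and changed no call by over 1.5 times.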
